A study of Mus musculus with 4 samples.

Results

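The Hox cluster genes were examined in F123-ESCs, a male hybrid mouse embryonic stem cell line with a maternal S129/Jae genome (S129) and a paternal Cast genome (CAST). The members are the genes of the deposited table whose symbol is Hoxa, Hoxb, Hoxc or Hoxd followed by a number, and 39 of the 24026 genes met this rule, which uses no measured value. There were 11 Hoxa, 10 Hoxb, 9 Hoxc and 9 Hoxd genes. RNAseq of polyadenylated RNA was available from 4 libraries, replicates 1 to 4, all of the same untreated cells. Per the study's methods, these had been passaged on feeder-free plates to remove feeder cells and were harvested after about 48 h. There is therefore 1 group and no treatment, and the comparisons are between genes, between clusters and between the alleles of each gene. Because F123 is a single cell line from 1 cross, a difference between S129 and CAST can be an effect of the strain or of the parent of origin, and these cannot be told apart here. The sources used here do not say whether the libraries came from separate cultures, so p-values measure the spread between these libraries.

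Hox genes encode homeodomain transcription factors that give cells of the embryo their position along the head-to-tail axis. In the mouse they lie in 4 clusters, and genes of like sequence and like place in each cluster form paralog groups, numbered 1 to 13. Low group numbers act towards the head and are switched on early, and high numbers act towards the tail and are switched on late. In ESCs the clusters are known as targets of Polycomb repression that also carry marks of poised promoters, and retinoic acid is the classical signal that induces them, starting with the low group numbers.

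In the mm10 annotation the Hoxa cluster spans 105 kb of chromosome 6 (chr6:52155590-52260880). The Hoxb cluster spans 174 kb of chromosome 11 (chr11:96194316-96368256). The Hoxc cluster spans 116 kb of chromosome 15 (chr15:102921103-103036852), and the Hoxd cluster spans 96.8 kb of chromosome 2 (chr2:74668310-74765142). RefSeq promoter windows, from 250 bases before to 50 bases after the gene start (build GRCm38.p6, which is mm10), were available for 22 of the 39 genes. For 4 genes the 250 bases upstream of the start are shown, all on chromosome 2 and all on the plus strand, with each CpG in capitals. With the deposited gene lengths, Hoxd8 had the highest level of all members. Hoxd9 and Hoxd10 are the neighbours above 0 with the largest ratio of levels, and Hoxd1 was higher from CAST. The Hoxd1 stretch also holds the annotated start of Haglr, a noncoding gene on the opposite strand, with 83 bases between both genes.
Hoxd10, chr2:74691641-74691890: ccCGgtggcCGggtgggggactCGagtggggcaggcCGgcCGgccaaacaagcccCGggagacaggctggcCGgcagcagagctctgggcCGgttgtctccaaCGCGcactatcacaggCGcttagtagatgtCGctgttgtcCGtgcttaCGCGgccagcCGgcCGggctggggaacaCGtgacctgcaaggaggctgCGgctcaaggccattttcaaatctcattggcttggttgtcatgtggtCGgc
Hoxd9, chr2:74697513-74697762: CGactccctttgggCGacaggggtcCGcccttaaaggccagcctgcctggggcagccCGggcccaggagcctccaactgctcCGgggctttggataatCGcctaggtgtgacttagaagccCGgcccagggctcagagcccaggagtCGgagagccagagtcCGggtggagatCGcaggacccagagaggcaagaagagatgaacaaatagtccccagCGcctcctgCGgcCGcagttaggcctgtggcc
Hoxd8, chr2:74704365-74704614: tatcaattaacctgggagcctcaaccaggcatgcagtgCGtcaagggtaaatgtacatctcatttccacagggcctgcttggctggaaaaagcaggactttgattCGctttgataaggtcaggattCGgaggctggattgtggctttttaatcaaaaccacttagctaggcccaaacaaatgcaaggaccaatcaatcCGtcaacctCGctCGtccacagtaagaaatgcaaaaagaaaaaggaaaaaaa
Hoxd1, chr2:74762730-74762979: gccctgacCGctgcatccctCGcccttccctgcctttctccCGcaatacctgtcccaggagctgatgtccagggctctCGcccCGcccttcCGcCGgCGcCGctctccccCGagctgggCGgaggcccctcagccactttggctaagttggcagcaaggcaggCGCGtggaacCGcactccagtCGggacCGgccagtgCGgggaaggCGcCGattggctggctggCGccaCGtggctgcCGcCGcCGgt
These stretches held 20 CpG for Hoxd10, 13 for Hoxd9, 6 for Hoxd8 and 24 for Hoxd1. Hoxd10, with 1 read in all, thus had more CpG than Hoxd8, the highest member with the deposited lengths. The most CpG were in the stretch of Hoxd1, whose level lay between theirs with these lengths. Over the 22 Hox windows of 300 bases the median was 13.5 CpG, beside 7 over the 27025 windows of all genes. Searched on both strands, CCAAT was present in 63.6% of the Hox windows and 37.9% of all windows. TATAAA was present in 13.6% and 14.2%, and GGGCGG in 40.9% and 35.9%. Among the 4 stretches shown, CCAAT occurred in those of Hoxd8, Hoxd10 and Hoxd1, GGGCGG in those of Hoxd9 and Hoxd1, and TATAAA in none. These matches of letters are a description and were not related to the levels by a test.

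Hox genes were nearly silent in F123-ESCs, but most were above 0. Values are RPKM of reads that could be assigned to an allele, and the level of a gene is the mean of its S129 and CAST values. The members had a median level of 0.139 RPKM, beside 0.975 RPKM over all genes and 1.68 RPKM over protein-coding genes. Only 2 members (5.13%) reached a mean level of 1 RPKM, Hoxd8 and Hoxb9, whereas 49.7% of all genes did. At 0.1 RPKM the difference was small, with 24 members (61.5%) beside 67.8% of all genes. By library, the median over the members lay between 0.128 and 0.155 RPKM (mean 0.141 ± 0.0134, SD, n = 4). The libraries thus gave close medians, and no library stood apart in the general Hox level.

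Whole reads could be recovered from the steps of the RPKM values. All members together held 3987 reads over the 8 allele columns, or 21.1 reads per 1000000 assigned reads. The 4 libraries gave 20.0, 22.4, 21.7 and 20.0 Hox reads on that scale, in absolute numbers 1131, 1127, 1046 and 683, out of 34120416 (replicate 4) to 56627972 (replicate 1) assigned reads per library. At least 1 read was present for 36 members, 25 were above 0 in all 8 columns, and the 14 members with at least 100 reads held 81.5% of the Hox reads. Hoxa13 and Hoxc9 were listed at 0 in every column. Hoxa13 acts in digits and the genital tubercle, and Hoxc9 sets the identity of thoracic motor neurons. For Hoxa13, 3 reads over all columns would be 0.00641 RPKM, and for Hoxc9 0.00652 RPKM. Only reads that cover a base differing between the strains entered the table, and the number of such bases per gene was not analysed here. A low level and few distinguishing bases in a gene cannot be told apart, and this bears on every comparison of levels between genes that follows. It bears less on comparisons of the alleles of a gene, which share these bases.

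**Figure D1:**
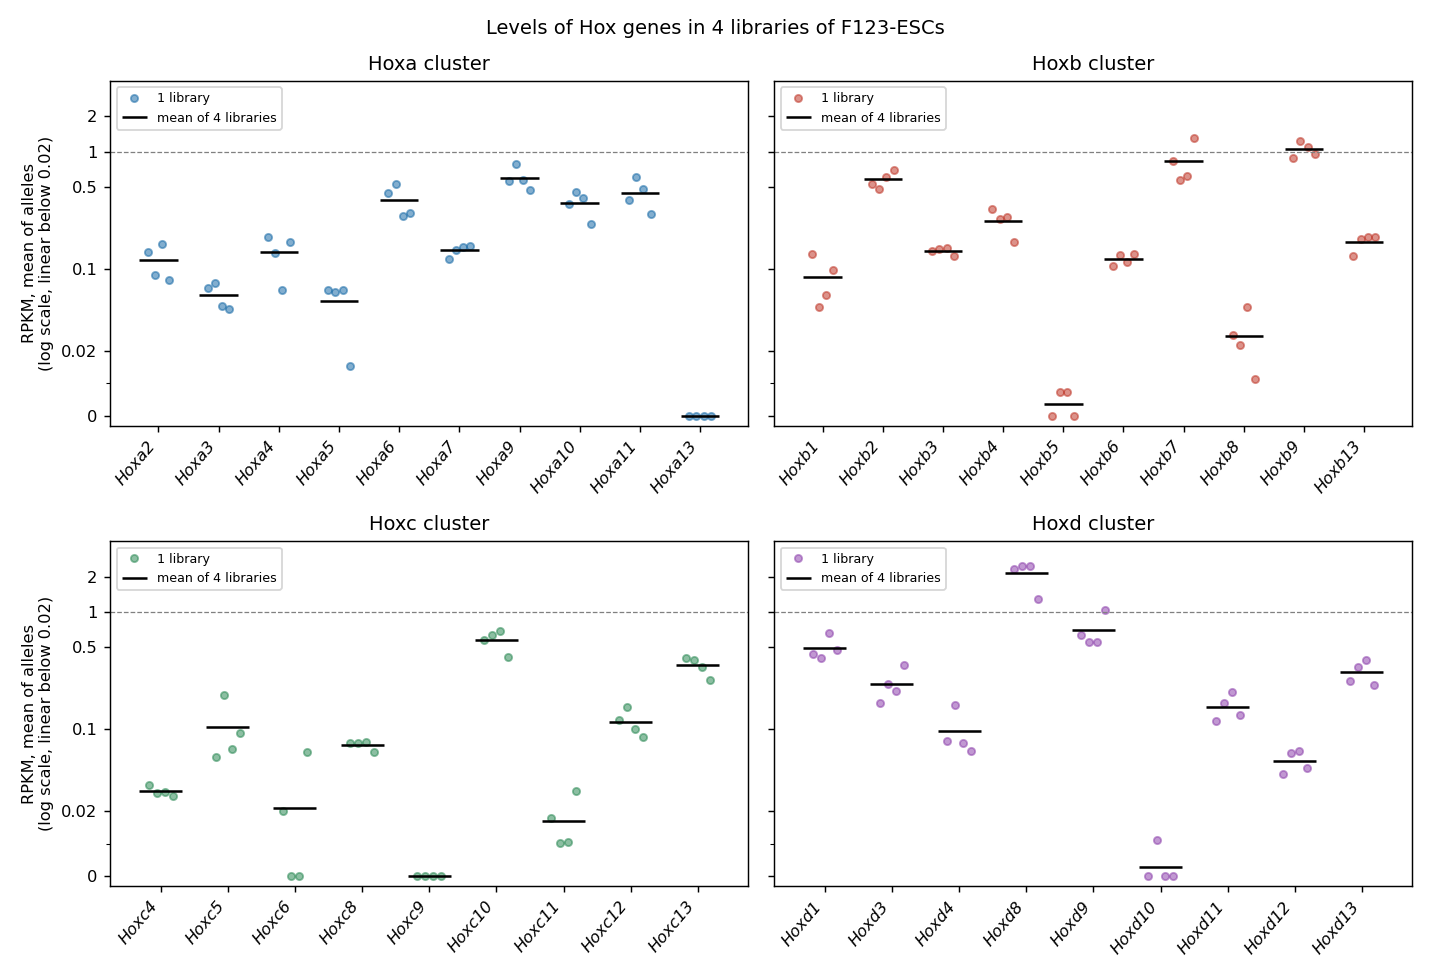
RPKM of the Hox genes named in the text (mean of the S129 and CAST values) in the 4 libraries of F123-ESCs, by cluster and in order of paralog group, on an axis that is logarithmic above 0.02 RPKM and linear below it. Points are libraries, black lines are means of 4 libraries, and the dashed line marks 1 RPKM, which the means of Hoxd8 (2.13) and Hoxb9 (1.05) exceed.

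The highest member was Hoxd8, a trunk Hox gene of group 8, with 2.32, 2.46, 2.47 and 1.27 RPKM in replicates 1 to 4 (2.13 ± 0.574, SD, n = 4). Replicate 4 was the low library, with 7 S129 and 17 CAST reads. Its rank depends on the gene length used. The deposited value of Hoxd8 rests on a length of 557 bp, while all its annotated exons together cover 2744 bp, and with that length its level was 0.432 RPKM. Hoxd8 then had rank 8 among the members, and Hoxb9, whose length was the same either way, had rank 1. Hoxb9, which patterns the ribs together with its paralogs, had 0.885, 1.23, 1.105 and 0.961 RPKM (1.05 ± 0.153, SD, n = 4) from 513 reads, the most of any member. It was above 1 RPKM in 2 of the 4 libraries. For 16 members the deposited length was below that of all exons, and for 5 the exons covered at least 2 times that length. Annotated exons of 10 members overlap a gene on the opposite strand and those of 9 a gene on the same strand, while 23 members, Hoxb9, Hoxd8 and Hoxd1 among them, have no such overlap.

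**Figure D2:**
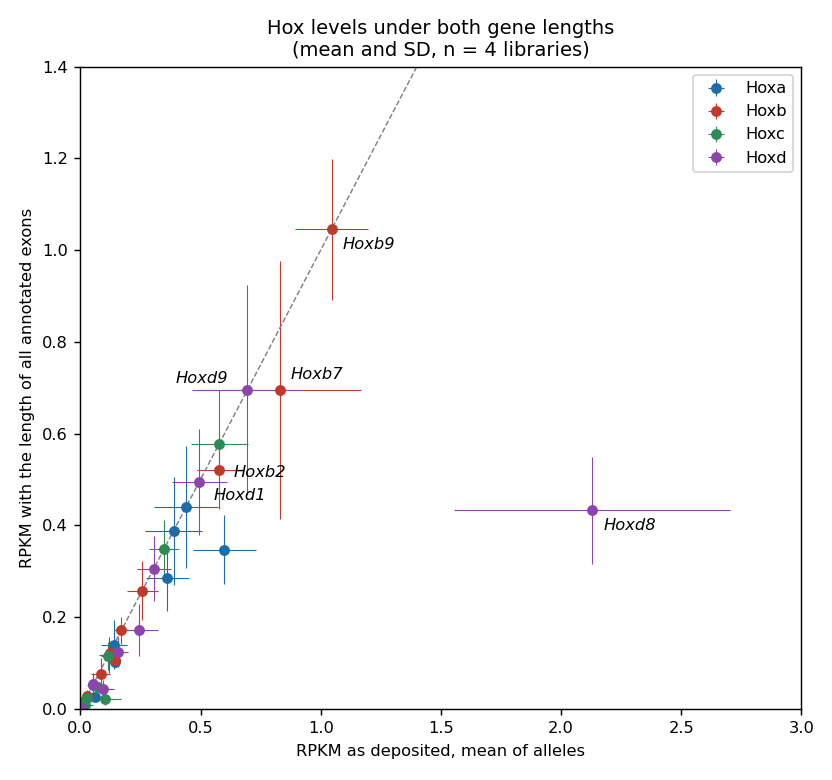
Mean RPKM of the Hox genes above 0 as deposited (horizontal axis) and after division by the summed length of every annotated exon (vertical axis), with SD bars over 4 libraries and colours for the clusters. Most genes lie on or close to the dashed line of equal values, and Hoxd8 moves from 2.13 to 0.432 RPKM.

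With the deposited lengths the highest Hoxa gene was Hoxa9, known for its part in blood stem cells and leukaemia, with 0.562, 0.782, 0.577 and 0.474 RPKM (0.599 ± 0.130, SD, n = 4). With all its exons Hoxa9 was at 0.346 RPKM, below Hoxa11 and Hoxa6. Next in the cluster were Hoxa11 (0.440 ± 0.132 RPKM), a gene of the forelimb and uterus, Hoxa6 (0.388 ± 0.118 RPKM) and Hoxa10 (0.362 ± 0.0904 RPKM). The means of these 3 genes differed by less than their SDs, but all were measured in the same libraries. Within every library Hoxa11 lay above Hoxa10, while the order of Hoxa6 relative to each of them changed between libraries. The other Hoxa genes above 0 were lower, from Hoxa5 (0.0527 RPKM), which acts in the lung, and Hoxa3 (0.0598 RPKM), which acts in thymus and parathyroid, to Hoxa2 (0.118 RPKM), a gene of the hindbrain and the second pharyngeal arch, Hoxa4 (0.139 RPKM) and Hoxa7 (0.145 RPKM). In the Hoxc cluster the highest gene was Hoxc10, which acts in hindlimb motor neurons, with 0.576, 0.638, 0.683 and 0.414 RPKM (0.578 ± 0.118, SD, n = 4). It was followed by Hoxc13 (0.349 ± 0.0630 RPKM), a gene of hair and nail, and Hoxc12 (0.115 RPKM). The remaining Hoxc genes lay at or below 0.104 RPKM, the value of Hoxc5, with Hoxc8 at 0.0731 and Hoxc4 at 0.0294 RPKM, and Hoxc5 itself rested on 12 reads over a length of 615 bp (0.0207 RPKM with all exons).

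In the Hoxb cluster, Hoxb7 followed Hoxb9 with 0.833, 0.572, 0.614 and 1.30 RPKM (0.831 ± 0.336, SD, n = 4), so that replicate 4 was the high library. The hindbrain gene Hoxb2 (0.579 ± 0.0949 RPKM) and Hoxb4 (0.258 ± 0.0640 RPKM), known for the expansion of blood stem cells, came next. Hoxb1, an early hindbrain gene and a strong retinoic acid target, was at 0.0848 ± 0.0394 RPKM. Hoxb13, a gene of the prostate and tail bud, was at 0.171 RPKM, Hoxb3 at 0.143 RPKM and Hoxb6 at 0.122 RPKM. In the Hoxd cluster, Hoxd9 had 0.637, 0.557, 0.551 and 1.03 RPKM (0.695 ± 0.229, SD, n = 4), Hoxd1 had 0.495 ± 0.116 RPKM, and Hoxd13, a digit gene, had 0.306 ± 0.0712 RPKM. Hoxd3 was at 0.244, Hoxd11 at 0.156, Hoxd4 at 0.0955 and Hoxd12 at 0.0539 RPKM. For Hoxd9 as for Hoxb7, replicate 4 gave the highest value, while for Hoxd8 it gave the lowest.

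Levels did not run smoothly along the clusters, and genes with few reads lay between genes with many. Hoxb8, at 0.0270 RPKM, lies between Hoxb7 and Hoxb9, 1.31 kb and 5.31 kb away. Per base of gene length, Hoxb9 held 37.5 times the reads of Hoxb8 (exact 95% interval 22.2 to 69.1) and Hoxb7 held 28.1 times (16.4 to 52.4). Hoxd10 gave 1 read in all 8 columns, 2.62 kb from Hoxd9 with 269 reads, a ratio per base of 229 (40.7 to 9066). Its pooled level was 0.00291 RPKM (exact 95% interval 7.37e-05 to 0.0162). Hoxb5 gave 2 reads beside 130 for Hoxb4 (ratio 70.6, 19.1 to 589), and Hoxc11 gave 6 reads beside 213 for Hoxc10 (37.6, 17.0 to 104). Hoxd8 held 22.3 times the reads per base of Hoxd4 (14.7 to 35.2) with the deposited lengths, and 9.97 times with all exons. Hoxd4 shares 39.1% of its exon bases with Gm28230 and 13.2% with Hoxd3, on the same strand. How reads on shared bases were counted is not given in the sources used here. In each of these pairs the order was the same in 4 of 4 libraries and in 8 of 8 allele columns. The pairs were picked for their differences after the values were seen, so the intervals are a description, and they cover counting error only. Hoxc6, with 3 reads, was the other member below 10 reads.

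**Figure D3:**
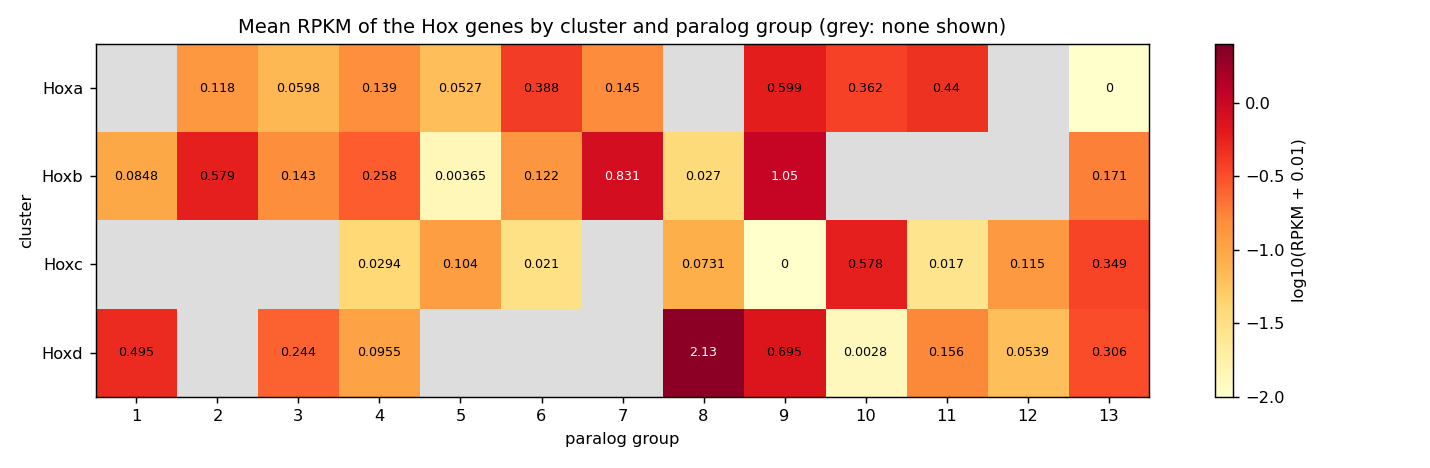
Mean RPKM of the Hox genes named in the text over 4 libraries, by cluster (vertical) and paralog group (horizontal), coloured by log10(RPKM + 0.01) with grey where no gene is shown. Group 9 has 3 genes between 0.599 and 1.05 RPKM beside Hoxc9 at 0, and the 3 genes of group 5 lie at or below 0.104 RPKM.

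By paralog group, group 9 held the most reads (1154) and had the highest median level, 0.647 RPKM, although Hoxc9 was at 0. Group 5 held the fewest, 34 reads over Hoxa5, Hoxb5 and Hoxc5. The 12 genes of groups 1 to 4 had a median of 0.129 RPKM, the 11 genes of groups 5 to 8 had 0.104 RPKM, and the 16 genes of groups 9 to 13 had 0.238 RPKM. On the log2(RPKM + 0.1) scale, the median of groups 1 to 4 lay below that of groups 9 to 13 in 4 of 4 libraries, by -0.24, -0.53, -0.81 and -0.54 (mean -0.53 ± 0.23, SD, n = 4). The two-sided exact sign-flip permutation p was 0.13, the smallest that 4 libraries allow. The head-side genes were therefore not the more abundant ones in these libraries, but the difference could not pass a threshold of 0.05 in this design.

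Between the clusters, summed levels were lowest for Hoxc in every library. The Hoxd genes summed to 4.06, 4.39, 4.63 and 3.62 RPKM (4.18 ± 0.438, SD, n = 4), of which Hoxd8 gave 51.0%. The Hoxb genes summed to 3.11, 3.09, 3.16 and 3.69 RPKM (3.26 ± 0.288). The Hoxa genes summed to 2.33, 2.87, 2.23 and 1.77 RPKM (2.30 ± 0.451), and the Hoxc genes to 1.30, 1.49, 1.31 and 1.04 RPKM (1.29 ± 0.186). Of the 6 pairs of clusters, 5 kept their order in all 4 libraries, each with an exact permutation p of 0.13 (0.15 after Benjamini-Hochberg adjustment over the 6 pairs). Hoxb and Hoxd did not, with a log2 difference of -0.35 ± 0.26 and an exact permutation p of 0.25. With the length of all exons Hoxb was the higher of these by 0.38, and without the highest gene of each cluster by 0.11. Hoxa and Hoxd, apart by -0.87 in the sums, differed by -0.31 with all exons (exact permutation p = 0.25) and by -0.28 without the highest genes (exact permutation p = 0.5), no longer in the same order in all libraries. By medians over the genes Hoxa and Hoxd differed by -0.34, in the same order in all libraries (exact permutation p = 0.13). Hoxa and Hoxb, at -0.52 in the sums, differed by -0.69 with all exons, again in the same order (exact permutation p = 0.13). That order was not kept in all libraries without the highest genes (-0.39, exact permutation p = 0.25) or by medians (-0.047, exact permutation p = 0.5).

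Set beside 156 genes of other homeobox families, the Hox genes were a set of low but rarely zero values. The other homeobox genes had a median of 0.0793 RPKM, and 24 (15.4%) reached 1 RPKM. At 0 were 22 of them (14.1%), beside 7.69% of the Hox genes and 15.7% of all genes. The 156 genes include the Rhox family, and genes of the X chromosome were not left out. In a male line X genes have no paternal allele, so their mean of alleles is lowered. On the log2(RPKM + 0.1) scale the Hox median was higher by 0.41 ± 0.029 (SD, n = 4), in 4 of 4 libraries with an exact permutation p of 0.13. The sign depended on the summary. With means over genes the Hox genes were lower, by -0.23, and among genes of at least 0.1 RPKM the Hox median was lower by -0.67.

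With the deposited lengths, the genes next to the clusters were mostly far above them. On the Hoxa side, Skap2 (143 kb away) was at 18.5 RPKM and Hibadh at 66.8 RPKM, while the homeobox gene Evx1, 52.6 kb away, was at 0.410 RPKM. Beside Hoxb, Ttll6 was at 0.958 and Skap1 at 1.11 RPKM, with Calcoco2 (33.8 RPKM) and Snx11 (15.6 RPKM) further out. Beside Hoxc, Calcoco1 was at 5.39 and Smug1 at 6.16 RPKM. Beside Hoxd, Evx2 was at 0.00121 RPKM, from 1 read, while Lnpk and Mtx2 were at 7.64 and 14.8 RPKM.

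Noncoding genes inside or beside the clusters covered a wider range than the Hox genes. Of the 19 genes listed for this class, 18 were in the table, 2 reached 1 RPKM (1 with the length of all exons) and 6 were at 0, among them Hotairm1 and the microRNA genes Mir10a, Mir196b and Mir615. Mature microRNAs carry no poly(A) tail. Halr1, which is known to act on the Hoxa genes in ESCs, was at 59.1, 61.0, 61.1 and 54.9 RPKM (59.0 ± 2.91, SD, n = 4), or 23.5 RPKM with the length of all its exons. That is above every Hox gene in each library. Haglr, opposite Hoxd1, was at 2.40 ± 0.608 RPKM (0.352 with all exons), Hoxb5os at 0.941 ± 0.235 RPKM and Hotair at 0.0274 RPKM.

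Partners and regulators of Hox proteins ranged from Hox-like levels to far higher ones, and several of these levels also depend on the gene length. Of 9 TALE cofactors, which bind DNA together with Hox proteins, 8 reached 1 RPKM, and 5 did with the length of all exons. Pknox1 was at 15.0 ± 0.857 RPKM (4.92 with all exons) and Meis3 at 7.86 ± 0.669 RPKM (1.63 with all exons), whereas Meis1 was at 0.163 RPKM. Of 15 genes that sense or handle retinoic acid or act as Cdx inducers, 9 reached 1 RPKM with either length, or 60.0% beside the 49.7% of all genes. The receptors Rxra (53.8 RPKM, 6.18 with all exons) and Rarg (17.4 RPKM, 12.04 with all exons) were among them. So were Crabp2 (40.4 RPKM, 28.4 with all exons), Stra8 (28.8 RPKM), Dhrs3 (4.31 RPKM), Cyp26a1 (3.42 RPKM) and Cdx1 (1.50 RPKM). The receptor gene Rarb (0.206 RPKM), the synthesizing enzyme Aldh1a2 (0.494 RPKM) and Cdx2 (0.390 RPKM) were below and lay inside the Hox range. Of 13 Trithorax and Polycomb genes, 11 reached 1 RPKM with either length. The order of the Polycomb genes turned with the length. With deposited lengths Jarid2 (270 RPKM) and Ezh2 (99.6 RPKM) lay above Eed (84.8 RPKM) and Cbx7 (69.9 RPKM). With all exons Jarid2 (11.9 RPKM) and Ezh2 (11.7 RPKM) lay below Eed (45.8 RPKM) and Cbx7 (31.2 RPKM). The Trithorax methyltransferase Kmt2a was at 1.09 RPKM.

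The label of the cells was checked against marker genes. All 8 ESC markers exceeded 1 RPKM, including Nanog (84.5 RPKM) and Pou5f1 (29.5 RPKM), and did so with the length of all exons too. Of 14 feeder fibroblast markers 11 did (9 with all exons). Twist1 was at 0, Lum at 0.0462 RPKM and Dcn at 0.659 RPKM. Acta2 was at 340 RPKM (275 with all exons) and Col1a2 at 166 RPKM (11.3 with all exons). With deposited lengths the sums of the 14 markers were 501, 582, 596 and 532 RPKM in replicates 1 to 4. Acta2 alone gave 61.4% of the mean marker sum with these lengths. The Hox sums were 10.8, 11.8, 11.3 and 10.1 RPKM, and with all exons the mean marker sum was 313 RPKM. Of primitive endoderm markers 5 of 8 reached 1 RPKM (2 with all exons), of mesoderm and primitive streak markers 2 of 8 (T at 8.89 RPKM) and of neural markers 2 of 8 (Nes at 76.2 RPKM, 15.6 with all exons). The part of other cells in the Hox levels was not tested, and few cells with much RNA of a gene cannot be told apart from many cells with little. Only reads that match S129 or CAST bases were used, which does not keep out reads of feeder cells that carry such bases. Acta2 was at 335 RPKM from S129 and 344 RPKM from CAST, and Col1a2 at 180 and 151 RPKM. Whether reads of feeder cells entered was not tested.

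Allelic differences were examined next. limma was fitted over the whole table on log2(RPKM + 0.1) as the S129 value minus the CAST value of a library, for genes whose S129 and CAST values summed to at least 1 RPKM. Of the 39 members 7 passed this filter (Hoxa9, Hoxb2, Hoxb7, Hoxb9, Hoxc10, Hoxd8 and Hoxd9), and 1 was called higher from S129 and none higher from CAST at an adjusted p below 0.05. At that filter 31.4% of 13341 genes were called higher from S129 and 31.3% higher from CAST. Among autosomal genes, which leave out the maternal X of a male line, these shares were 28.9% and 32.5%. At an unadjusted p below 0.05, 2 members were higher from S129, Hoxb9 and Hoxb2, and 0 were higher from CAST. The share of all genes at this unadjusted threshold is not given, so that count is not a result about Hox genes as a set. The single call among 7 tested members is not more than the background share.

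The called member was Hoxb9. Its S129 allele gave 1.28, 1.54, 1.53 and 1.32 RPKM, and its CAST allele gave 0.488, 0.915, 0.674 and 0.604 RPKM. The alleles did not overlap, since the lowest S129 value lay above the highest CAST value. The log2 difference was 1.00 (SE 0.098, higher in 4 of 4 libraries, limma adjusted p = 0.00123), and it stayed past the threshold without each library in turn (adjusted p 0.00195 to 0.00972). Of the 513 reads on Hoxb9, 68.8% were S129 (exact 95% interval 64.6 to 72.8), with 63.7% to 73.1% by library. No annotated exon of another gene overlaps those of Hoxb9.

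The other 6 tested members did not pass the threshold. Hoxb2 was higher from S129 in 4 of 4 libraries (log2 difference 0.39, SE 0.14, limma adjusted p = 0.0718). For Hoxb7 the difference was -0.48 (adjusted p = 0.142), and for Hoxd8 -0.46 (adjusted p = 0.229), each lower from S129 in 3 of 4 libraries. Hoxd8 showed how wide the spread was, with 1.81, 2.87, 2.05 and 0.722 RPKM from S129 and 2.84, 2.04, 2.89 and 1.83 RPKM from CAST. Its alleles overlapped. Hoxa9 (0.15, adjusted p = 0.544), Hoxc10 (-0.17, adjusted p = 0.536) and Hoxd9 (0.061, adjusted p = 0.827) differed by less than their spread.

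Hoxd1, which in the mouse acts in pain-sensing neurons, fell just short of that filter and had the lowest S129 share of the members with at least 20 reads. Its S129 allele gave 0.168, 0.146, 0.437 and 0.247 RPKM and its CAST allele gave 0.713, 0.655, 0.887 and 0.707 RPKM. Every CAST value lay above every S129 value. With the filter lowered to 0.2 RPKM, one of the alternatives, 24 members were tested. Hoxd1 then had a log2 difference of -1.33 (SE 0.15, lower from S129 in 4 of 4 libraries, limma adjusted p = 0.00302), and the adjusted p was 0.00536 to 0.0167 without each library in turn. Of its 172 reads, 25.6% were S129 (exact 95% interval 19.2 to 32.8). At this filter 2 of the 24 members were called higher from S129, Hoxb9 and Hoxa11, and 1 higher from CAST, beside 25.4% and 27.8% of 15704 autosomal genes. Whether these shares differ from the background was not tested. Hoxd1 and Hoxa11 are named here after their values were seen.

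Hoxa11 gave 0.441, 0.818, 0.641 and 0.327 RPKM from S129 and 0.330, 0.391, 0.315 and 0.262 RPKM from CAST. S129 was higher within each library, but the ranges overlapped. The log2 difference was 0.58 (SE 0.15, limma adjusted p = 0.0316). It did not pass the threshold without replicate 1, 2 or 3 (adjusted p 0.0600, 0.0940 and 0.105). Genes of chromosome 6 leaned to S129 as a whole, with a median log2 difference of 0.19, whereas the medians of chromosomes 2, 11 and 15 were -0.010, 0.0083 and -0.036. With the chromosome median taken out, Hoxa11 was at 0.38 (adjusted p = 0.0965), while Hoxb9 (1.00, adjusted p = 0.00226) and Hoxd1 (-1.31, adjusted p = 0.00353) stayed past the threshold. Exons of Hoxa11 and the antisense gene Hoxa11os share 800 bp, and the sources used here do not say whether counting used the strand.

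**Figure D4:**
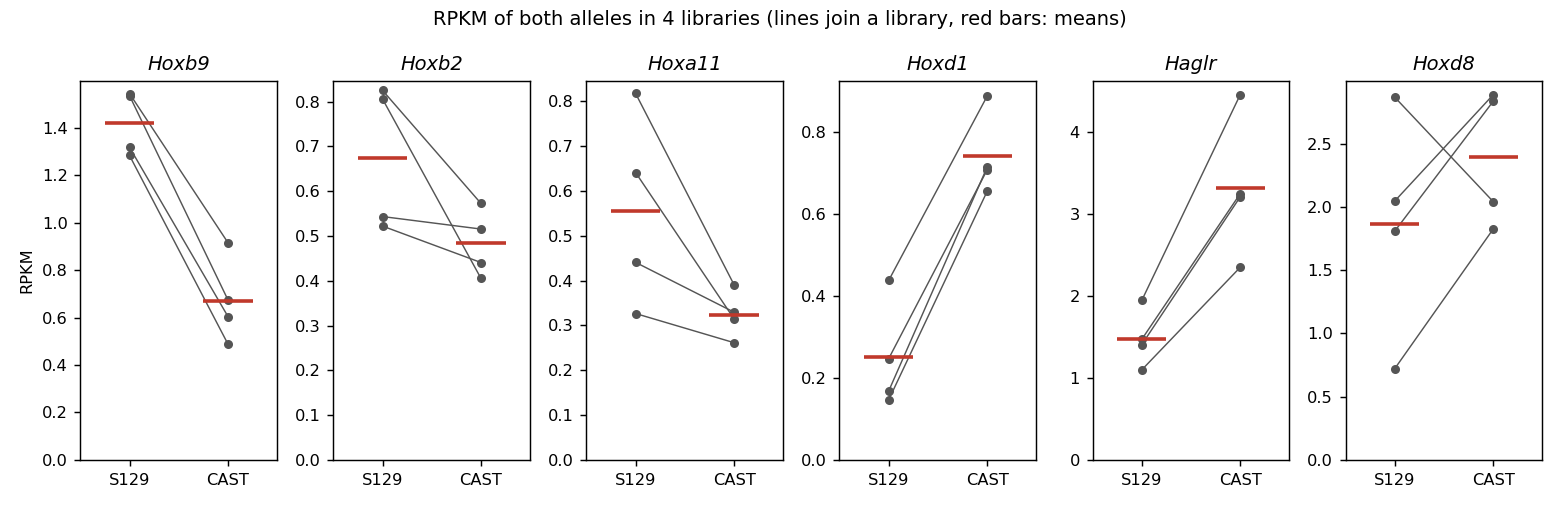
RPKM of the S129 and CAST alleles of 5 Hox genes and of Haglr in 4 libraries, with a line joining the alleles of each library and red bars at the means. For Hoxb9 all S129 values exceed all CAST values, for Hoxd1 and Haglr all CAST values exceed all S129 values, and for Hoxd8 the alleles overlap.

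Noncoding genes of the clusters passed through the same fit. Haglr, divergent from Hoxd1, gave 1.098, 1.41, 1.47 and 1.95 RPKM from S129 and 2.35, 3.21, 3.25 and 4.46 RPKM from CAST. Its log2 difference was -1.10 (SE 0.036, lower from S129 in 4 of 4 libraries, limma adjusted p = 4.86e-05), so Haglr and Hoxd1, whose starts lie inside and at the end of the Hoxd1 stretch printed above, both gave more RNA from CAST. Hoxb5os, in the Hoxb cluster, was higher from S129 (1.08, SE 0.21, limma adjusted p = 0.0110), as was Hoxb9. Halr1 on chromosome 6 was higher from S129 by 0.42 (SE 0.056, limma adjusted p = 0.00346), and by 0.22 (adjusted p = 0.0327) with the chromosome median taken out. Hoxaas3 did not pass the threshold (-0.36, limma adjusted p = 0.429).

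**Figure D5:**
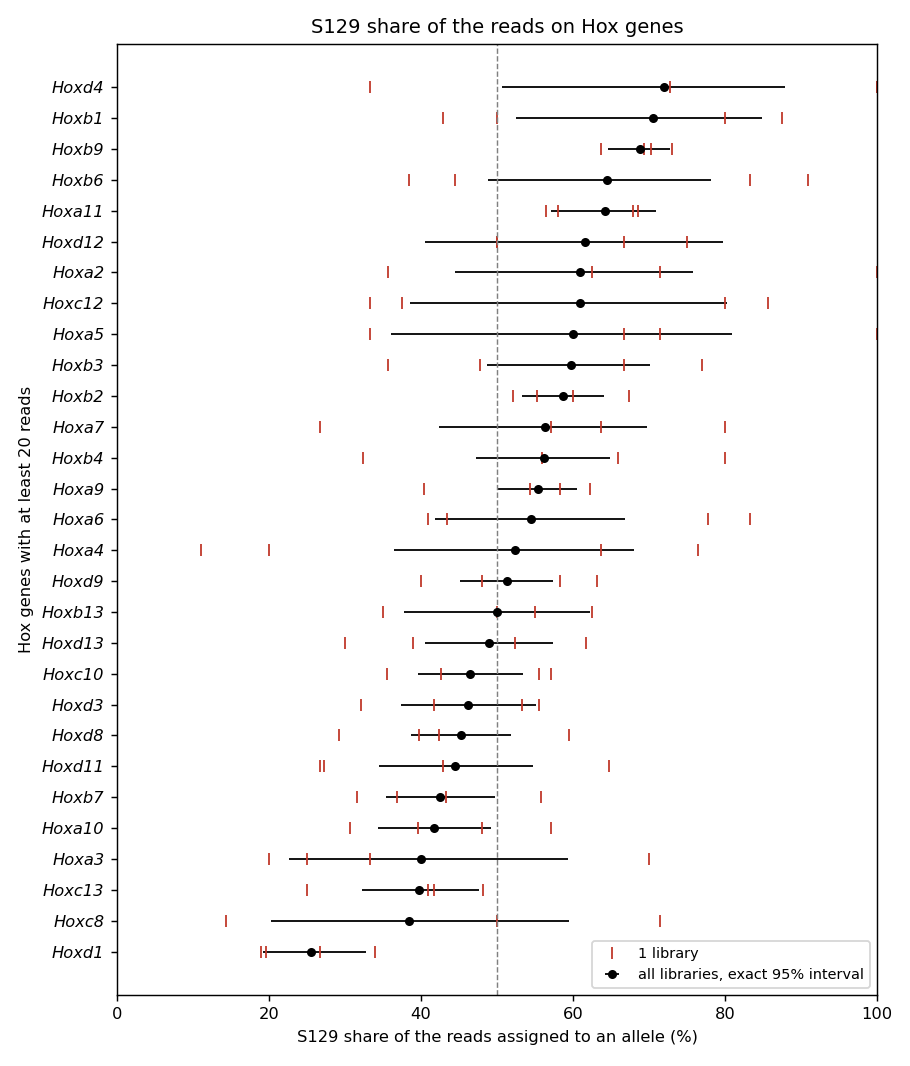
S129 share of the reads assigned to an allele (percent, horizontal axis) for the 29 Hox genes with at least 20 reads. Black points are shares over all libraries with exact 95% binomial intervals, red ticks are libraries, and Hoxd1 (25.6%) and Hoxb9 (68.8%) stand furthest from 50% among genes with narrow intervals.

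Among the 29 members with at least 20 reads the median S129 share was 54.5%. The exact 95% interval lay above 50% for 6 members and below 50% for 4, and it held 50% for 19. The same count was not made over all genes, so it is not a result about Hox genes as a set. Each library held more S129 than CAST reads in all, 28772351 and 27855621 in replicate 1. A share of 50% is therefore only a rough point of balance, and the interval of Hoxa9 began at 50.2%. These intervals cover counting error only, and the shares of a gene often differed between libraries by more. For Hoxa4, with 42 reads, the S129 share ran from 11.1% to 76.5% by library, and for Hoxb6, with 45 reads, from 38.5% to 90.9%. No Hox gene with at least 20 reads came from 1 allele alone. Hoxc11 had 0 S129 and 6 CAST reads, which is too few to tell a silent allele from a low one.

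Summed over whole clusters, 4 libraries allow no exact p below 0.13, so no cluster could pass 0.05. The S129 to CAST log2 ratio of summed RPKM was 0.22 ± 0.11 for Hoxa, higher from S129 in 4 of 4 libraries (exact permutation p = 0.13). With the median of chromosome 6 taken out, the Hoxa ratio was 0.013 (exact permutation p = 0.875). The ratio was 0.38 ± 0.38 for Hoxb (p = 0.25, exact), -0.26 ± 0.45 for Hoxc (p = 0.5, exact) and -0.40 ± 0.49 for Hoxd (p = 0.25, exact). Adjusted over the 4 clusters these exact p-values were 0.333, 0.333, 0.5 and 0.333. In the Hoxd cluster Hoxd1 leaned to CAST while Hoxd9 gave 51.3% S129 reads, and in the Hoxb cluster Hoxb9 leaned to S129 while Hoxb7 gave 42.5%.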

How the data were processed

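RNAseq was measured in 4 libraries of untreated F123-ESCs (paired 150 bp reads). Per the study's methods, the authors removed rRNA reads, trimmed with Trimmomatic 0.40, aligned with STAR to an N-masked mm10 genome, split reads by allele and deposited RPKM per gene and allele. They also deposited an average RPKM and its log10, which were not used. The counter and its annotation are not given in the sources used here. Reads were recovered from the RPKM steps with GENCODE gene lengths and were whole, within 0.02 reads, for 94.5% of the 20243 genes above 0. The recovered totals were 16716721 to 28772351 reads per allele column.

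Levels are means of both alleles. Alleles were compared with limma 3.58.1 (R 4.3.3) on log2(RPKM + 0.1) within libraries, filtered at 1 RPKM for S129 plus CAST, with Benjamini-Hochberg adjustment over all genes tested. A fold change on this scale understates that of low genes. Scripts were tested on simulated data. Cluster and set differences used exact sign-flip permutation tests (scipy 1.17.1). Alternatives changed the pseudocount, filter, length, scaling, summary, pairing and libraries. Every library was named where a member reached 1 RPKM, was the highest of its cluster or was called between alleles, and other genes come from lists or lie next to the clusters. Values of some genes that the counts include are not reported here. The members and lists were chosen with earlier results of these data known.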

Additional observations from a re-analysis of the deposited data

Results flagged for a closer look

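Of 50 quantities examined over the 4 libraries (36 members with reads, sums and differences), 7 had a library set apart from the others by Dixon's ratio at its critical value for 4 samples, where chance gives about 1 in 20, or 2.5. Hoxd8 was at 1.27 RPKM in replicate 4 and between 2.32 and 2.47 RPKM in the others. Hoxb13 was at 0.128 RPKM in replicate 1 and between 0.182 and 0.188 RPKM in the others. Hoxa5 was at 0.0153 RPKM in replicate 4 beside 0.0640 to 0.0659 RPKM. Hoxc8 was at 0.0640 RPKM in replicate 4 beside 0.0757 to 0.0772 RPKM. Hoxd4 was at 0.162 RPKM in replicate 2 beside 0.0644 to 0.0796 RPKM, and Hoxd10 was at 0.0112 RPKM in replicate 2, from its only read. A gene with 1 read is always set apart by this ratio, so Hoxd10 says nothing in the comparison of 7 with 2.5. The summed level of the Hoxb cluster was 3.69 RPKM in replicate 4 beside 3.09 to 3.16 RPKM, and Hoxb7 was at 1.30 RPKM in that library. Replicate 4 was also the library with the fewest reads.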

How the results depend on the processing

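Of 223 alternative values, 193 changed neither in direction nor in call, or moved by less than the spread. Sign-flip tests gave 87 of the 223 and 83 of the 193, and their call could not change in this design. The 193 therefore do not measure stability. They include the S129 to CAST log2 ratio of the Hoxa cluster, which fell from 0.22 to 0.013 with the chromosome median taken out. The number of members at 1 RPKM was 2. It became 1 with the length of all exons, 7 at a limit of 0.5 RPKM and 24 at 0.1 RPKM, and 1 to 2 without each library in turn. It fell to 1 without replicate 2. The median level of 0.141 RPKM became 0.124 from CAST alone and 0.117 with all exons. The difference from other homeobox genes (0.41) reversed to -0.23 with means and to -0.67 among genes of at least 0.1 RPKM. The Hoxb minus Hoxd difference (-0.35) reversed to 0.38 with all exons, an alternative added after seeing the data, and to 0.11 without the highest genes. Members called higher from S129 (1) became 2 at a filter of 0.2 RPKM, 2 without a filter and 2 after rescaling, and 1 to 2 without each library. The 2 without replicate 4 were Hoxb9 and Hoxa9 (adjusted p = 0.0409). Members called higher from CAST (0) became 1 at 0.2 RPKM, 2 without a filter, 1 at 0.2 RPKM with the chromosome median taken out (added after seeing the data), and 0 to 2 without each library. Hoxd1 was among them without replicate 1, 2 or 4, where it passed the filter. With it were Hoxb7 (adjusted p = 0.0329) without replicate 1 and Hoxd8 (adjusted p = 0.0383) without replicate 2. Without a filter they were Hoxd1 (limma adjusted p = 0.00393) and Hoxc11 (limma adjusted p = 0.0237). Hoxc11 had 0 S129 and 6 CAST reads, too few to read as an allele difference. Shares over all genes are given only for the filters of 1 and 0.2 RPKM. The counts of called members at other settings have no background beside them. Small limma differences changed sign for Hoxa9 with the chromosome median out (-0.055, and -0.052 at the lower filter), for Hoxc10 without replicate 1 (0.035, range -0.33 to 0.035 without each library) and for Hoxd9 without replicate 2 or 3 (-0.038 and -0.12, range -0.12 to 0.28). Alleles of a library were paired in the limma fit, and without this replicate block 1 member was called from S129 and 0 from CAST. Exact tests over 4 libraries cannot pass 0.05, so their p-values say nothing about stability. The cause of these changes was not tested beyond the settings themselves. Of the 36 members with reads, 14 had at least 100. Levels of other genes with all exons were also added after seeing the data.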
